A study of Homo sapiens with 6 samples.

Results

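Matrix metalloproteinases (MMPs), their inhibitors (TIMPs) and the genes of plasminogen activation were compared between RKO cells labelled olaparib and RKO cells labelled DMSO. The 10 genes were taken by symbol from the deposited table of raw read counts, and all 10 were found among its 39396 rows: MMP2, MMP14, MMP15, MMP24, TIMP1, TIMP2, TIMP3, PLAU, PLAUR and PLAT. All 10 also passed the expression filter, as did 17078 genes in all. RKO is a colorectal carcinoma line. The labels give 3 libraries treated with olaparib, an inhibitor of the PARP enzymes, and 3 treated with its solvent DMSO. Both groups carry the genotype label WT. The sources used here give neither the dose nor the time of exposure.

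MMPs are zinc enzymes that cut collagens, laminins and cell surface proteins. Membrane-type MMPs are held at the cell surface, and MMP14 (also called MT1-MMP) is known to activate the secreted gelatinase MMP2 in a complex in which TIMP2 acts as the bridge. The second system uses serine proteases: PLAU (urokinase) and PLAT (tissue-type activator) turn plasminogen into plasmin, and PLAUR is the surface receptor that holds urokinase at the cell edge. In colorectal cancer both systems are studied for their part in invasion.

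Library totals ran from 28715138 to 42423785 counts, and the 10 genes held between 37 and 7987 counts in a library. Levels are CPM, read counts brought to a common library size after TMM scaling, which corrects for differences in composition. The groups differed widely: 75.7% of all tested genes were called at an adjusted p under 0.05 by edgeR's quasi-likelihood test. Whether the 2 groups hold the same cells was not tested, and a difference in cell source cannot be told apart from treatment. Of 8 epithelial markers, KRT8 and KRT18 were the most abundant in both groups, and the summed level of the list was 870 to 1167 CPM in olaparib against 222 to 288 CPM in DMSO. These 2 keratins held most of both sums. Of the 6 epithelial markers tested, 5 were higher and 1 was not called. The latter was CDH1, at 0.808 ± 0.561 CPM in olaparib and 0.900 ± 0.105 CPM in DMSO (SD, n = 3). KRT19 and ESRP1 were not tested, and ESRP1 held 2 counts in olaparib against 21 in DMSO. Of 8 intestinal markers, 4 were tested, with 1 higher and 3 lower, and the list summed to 9.73 to 9.91 CPM in olaparib against 93.7 to 189 CPM in DMSO. Most of the DMSO sum was CA2, at 98.7 ± 52.0 CPM there and 0.0218 ± 0.0377 CPM in olaparib (SD, n = 3). CDX1, VIL1, CDH17 and GPA33 were too low to be tested. The intestinal factor CDX2 lacked counts in all olaparib libraries and stood at 24.5 ± 2.0 CPM in DMSO (SD, n = 3), while the hepatic and intestinal factor HNF4A went the other way, at 9.69 ± 0.169 CPM in olaparib and 0.121 ± 0.129 CPM in DMSO (SD, n = 3). The fibroblast list summed to 103 to 136 CPM in olaparib and 94.0 to 102 CPM in DMSO. COL1A1 held most of both sums, at 113 ± 18.4 CPM in olaparib and 68.4 ± 3.39 CPM in DMSO (SD, n = 3). Of the 6 fibroblast markers tested, 1 was higher, 4 were lower and 1 was not called, among them LUM at 0.209 ± 0.142 CPM in olaparib and 18.9 ± 0.876 CPM in DMSO (SD, n = 3). COL1A2 had no count in olaparib and 1 library with counts in DMSO. Sums were 0.872 to 2.55 CPM in olaparib and 4.0 to 4.96 CPM in DMSO for blood and macrophage markers. For endothelial markers they were 23.6 to 25.6 CPM in olaparib and 2.04 to 2.49 CPM in DMSO. Most of that olaparib sum came from CDH5 alone, whose mean was 20.5 CPM in olaparib and 0.128 CPM in DMSO. Calls in this list went both ways: of 5 genes tested, 2 were higher, 1 (KDR) was lower and 2 were not called. Neuronal markers summed to 44.0 to 54.9 CPM in olaparib and 373 to 451 CPM in DMSO, and all 5 that were tested were lower. Nearly all of the olaparib sum was ENO2, with a mean of 46.3 CPM, whereas NEFL and KIF1A lacked counts there and NEFM held 1. KIF1A was the largest of the list in DMSO, with a mean of 196 CPM. The part of these differences in the results below was not tested.

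Of the 10 genes, 5 were higher in olaparib (MMP14, PLAU, TIMP2, PLAUR and MMP15), 3 were lower (MMP24, MMP2 and PLAT) and 2 were not called (TIMP1 and TIMP3). Among all tested genes 35.4% were higher and 40.3% lower. A call with a difference of at least 2-fold was found in 8 of the 10 genes and in 47.0% of all tested genes. PLAT sat at the edge of that threshold with 2.0-fold. In the same 8 genes the 3 olaparib libraries did not overlap the 3 DMSO libraries, where 79.4% of tested genes showed no overlap. The share of members called was thus close to the share in the whole table. The median log2 fold change was 0.62 over the 10 genes and -0.09 over all tested genes.

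**Figure D1:**
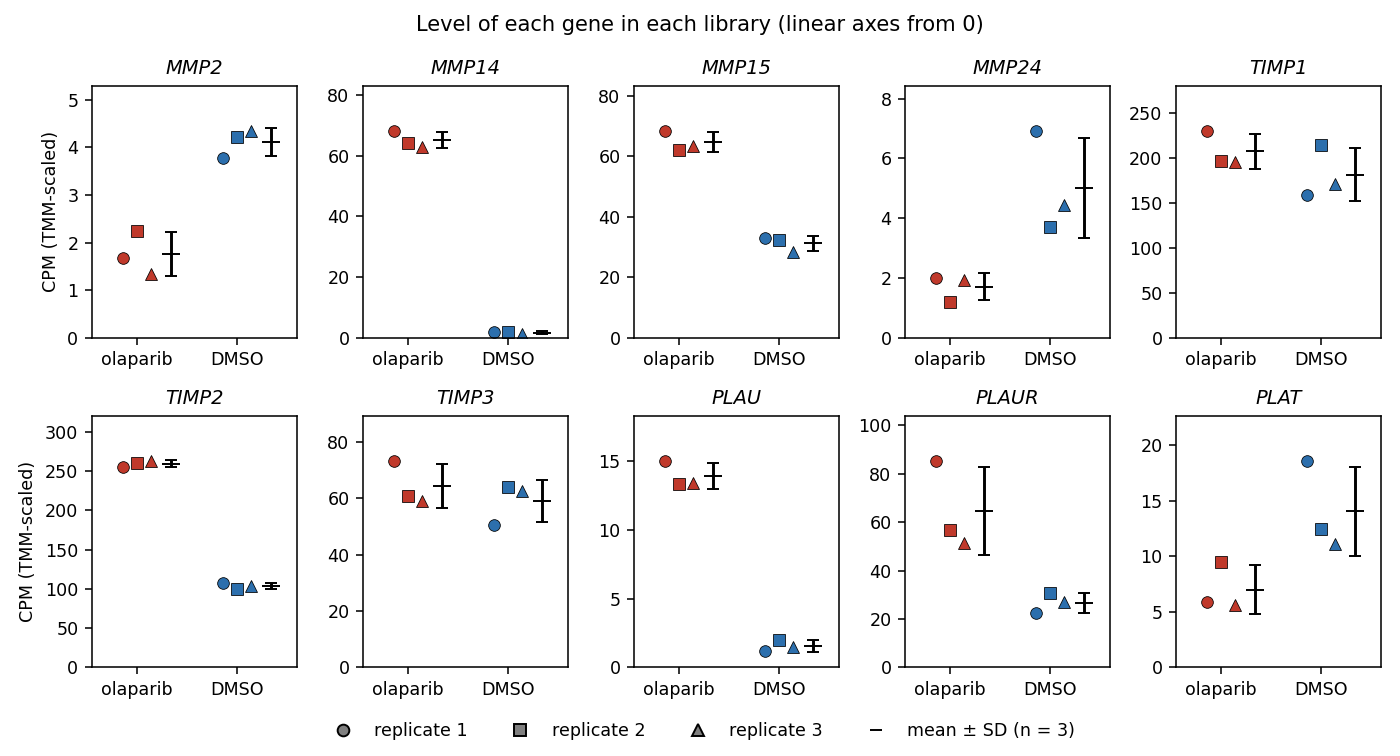
Level of the 10 genes in each library, in CPM on linear axes from 0, with the olaparib libraries left of the DMSO libraries; symbols mark replicates, and bars the mean ± SD of 3 libraries. MMP14 stands at 63.0 to 68.0 CPM in olaparib and 1.18 to 2.02 CPM in DMSO, whereas the groups overlap for TIMP1 and TIMP3.

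Promoter sequence from RefSeq (GRCh38.p14) is shown for 4 of the genes that were higher. Promoters were searched for 7 of the 10 genes, without MMP2, TIMP2 and PLAT. Each line gives the 250 bases before an annotated start, read 5′ to 3′ on the strand of the gene. Capitals mark GC boxes (GGGCGG, or CCGCCC on the other strand) in MMP14, MMP15 and PLAU, and in PLAUR an AP-1 element (TGANTCA, which reads alike on both strands).

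MMP14, chr14:22836335-22836584, plus strand: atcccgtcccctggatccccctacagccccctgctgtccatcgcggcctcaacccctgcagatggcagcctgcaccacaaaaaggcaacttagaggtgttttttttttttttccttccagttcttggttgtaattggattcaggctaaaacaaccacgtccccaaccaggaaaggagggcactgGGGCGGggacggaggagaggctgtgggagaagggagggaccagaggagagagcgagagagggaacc

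MMP15, chr16:58025504-58025753, plus strand: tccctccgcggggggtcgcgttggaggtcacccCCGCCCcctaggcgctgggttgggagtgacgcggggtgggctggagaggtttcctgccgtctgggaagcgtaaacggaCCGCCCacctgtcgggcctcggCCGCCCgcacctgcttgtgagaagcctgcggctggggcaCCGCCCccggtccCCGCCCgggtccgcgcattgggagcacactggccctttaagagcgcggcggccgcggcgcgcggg

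PLAU, chr10:73910882-73911131, plus strand: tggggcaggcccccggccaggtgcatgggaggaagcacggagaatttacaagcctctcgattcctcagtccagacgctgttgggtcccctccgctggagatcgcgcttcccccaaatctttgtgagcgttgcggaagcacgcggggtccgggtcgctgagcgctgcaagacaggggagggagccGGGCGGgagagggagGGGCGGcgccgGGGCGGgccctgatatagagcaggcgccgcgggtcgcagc

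PLAUR, chr19:43670170-43670419, minus strand: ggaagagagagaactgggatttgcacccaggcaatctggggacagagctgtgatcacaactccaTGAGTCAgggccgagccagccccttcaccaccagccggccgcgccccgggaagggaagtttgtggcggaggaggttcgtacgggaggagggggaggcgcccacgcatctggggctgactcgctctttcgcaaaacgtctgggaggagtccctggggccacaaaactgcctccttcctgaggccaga

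The windows differed in composition. That of MMP14 was 56.8% G and C with 1 GC box and a ratio of observed to expected CpG of 0.348, below the median of 0.558 over 35116 promoter windows of the same length. The MMP15 window held 5 GC boxes with a CpG ratio of 0.889, and the PLAU window 3 with a ratio of 0.837. A second RefSeq start of PLAU, with the window chr10:73910360-73910609, had no GC box and a ratio of 0.325. PLAUR alone among the 7 genes had a match to the AP-1 letters, beginning 186 bases before its start. At least 1 GC box was present in 42.6% of all windows and at least 1 AP-1 match in 6.57%. TIMP3, which was not called, had 5 GC boxes, and TIMP1, also not called, had 2. MMP24, which was lower, had 3 and a CpG ratio of 0.697. These matches describe letters only.

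MMP14 differed most. It held 68.0, 64.1 and 63.0 CPM in the olaparib libraries, against 1.88, 2.02 and 1.18 CPM in the DMSO libraries. Every olaparib library lay far above every DMSO library, and the counts behind them were 1950, 1963 and 1781 in olaparib against 79, 60 and 52 in DMSO. The log2 fold change was 5.28 ± 0.18 (SE, 39.0-fold), with an adjusted p of 3.19e-10 by edgeR (Benjamini-Hochberg). Its size exceeded that of 92.7% of tested genes. In bulk RNA, fewer cells that express a gene and less of its RNA per cell cannot be told apart.

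MMP15 is the second membrane-type enzyme (MT2-MMP) and has the same domain plan as MMP14, with a transmembrane anchor. It held 68.2, 61.9 and 63.5 CPM in olaparib, against 32.9, 32.4 and 28.4 CPM in DMSO. All olaparib libraries lay close together and above all DMSO libraries. Its log2 fold change was 1.05 ± 0.10 (SE, 2.07-fold, adjusted p = 1.85e-06 by edgeR). In olaparib, counts per kilobase of exon were nearly equal for MMP14 and MMP15, with ratios of 0.987, 1.02 and 0.982 in the 3 libraries. In DMSO the same ratio was 0.0564, 0.0619 and 0.0410.

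MMP24 (MT5-MMP), a membrane-type enzyme best known from the nervous system, went the other way. It held 1.99, 1.21 and 1.95 CPM in olaparib, against 6.91, 3.71 and 4.43 CPM in DMSO. The groups did not overlap, but DMSO replicate 1 stood well above the other two. The log2 fold change was -1.55 ± 0.31 (SE, adjusted p = 0.00057 by edgeR). The opposite strand carries MMP24OS, which shares 799 exonic bases with MMP24, 18.1% of its exonic length. MMP24OS was also lower, at 19.7 ± 2.24 CPM in olaparib against 41.2 ± 8.17 CPM in DMSO (SD, n = 3). Whether the reads were assigned by strand is not given, so the counts of this pair may not be independent.

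MMP2, the secreted gelatinase that MMP14 activates, was low in both groups and lower in olaparib. It held 1.67, 2.25 and 1.34 CPM in olaparib, against 3.77, 4.21 and 4.34 CPM in DMSO. The olaparib values rest on 48, 69 and 38 counts, and the groups did not overlap. That was a log2 fold change of -1.22 ± 0.26 (SE, 2.33-fold lower, adjusted p = 0.0011 by edgeR).

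**Figure D2:**
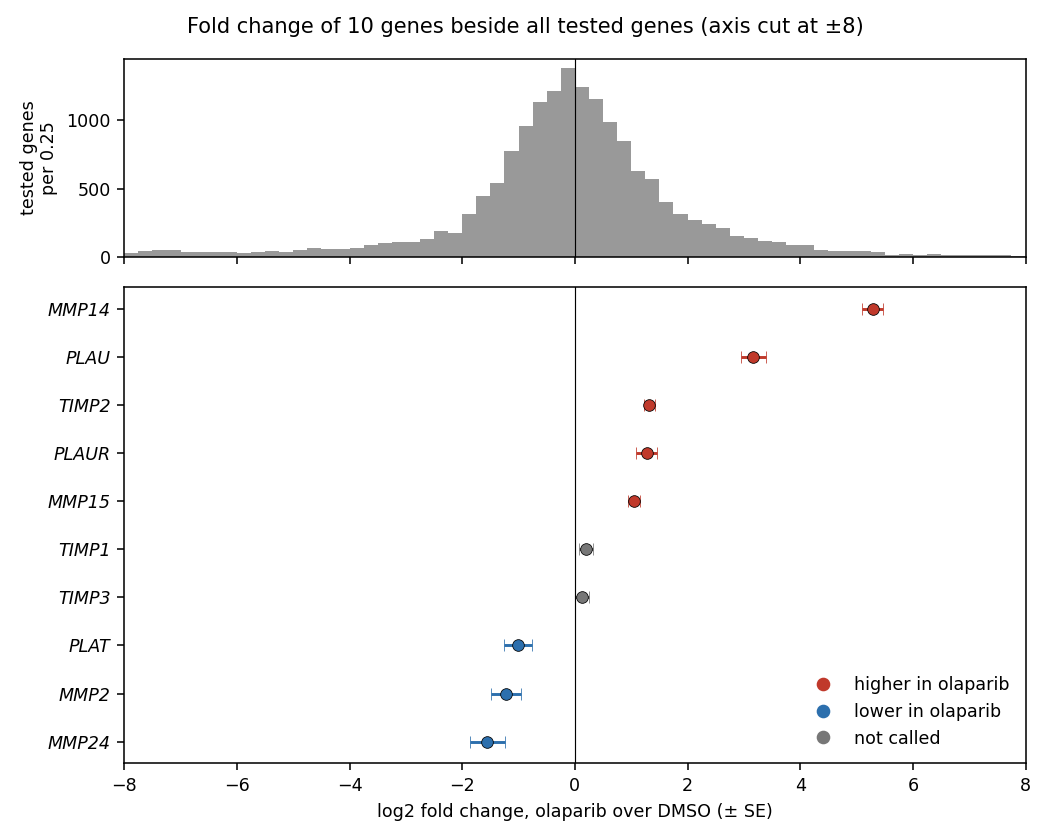
Log2 fold change of the 10 genes, olaparib over DMSO, with standard errors (lower panel) beneath the distribution over the 17078 tested genes in bins of 0.25 (upper panel); the axis ends at ±8. MMP14 at 5.28 and PLAU at 3.16 lie in the upper tail, and TIMP1 and TIMP3 near 0.

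Within the 4 MMPs the make-up therefore differed between groups. By counts per kilobase of exon, MMP14 took 48.4, 49.3 and 48.3% of the summed level of the 4 genes in olaparib, against 4.12, 4.78 and 3.07% in DMSO. MMP15 took 49.1, 48.1 and 49.2% in olaparib and 73.0, 77.3 and 74.9% in DMSO. The lowest of the 4 were MMP2, with 0.933 to 1.57% in olaparib and 7.5 to 10.3% in DMSO, and MMP24, with 0.941 to 1.51% in olaparib and 8.87 to 15.3% in DMSO.

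**Figure D3:**
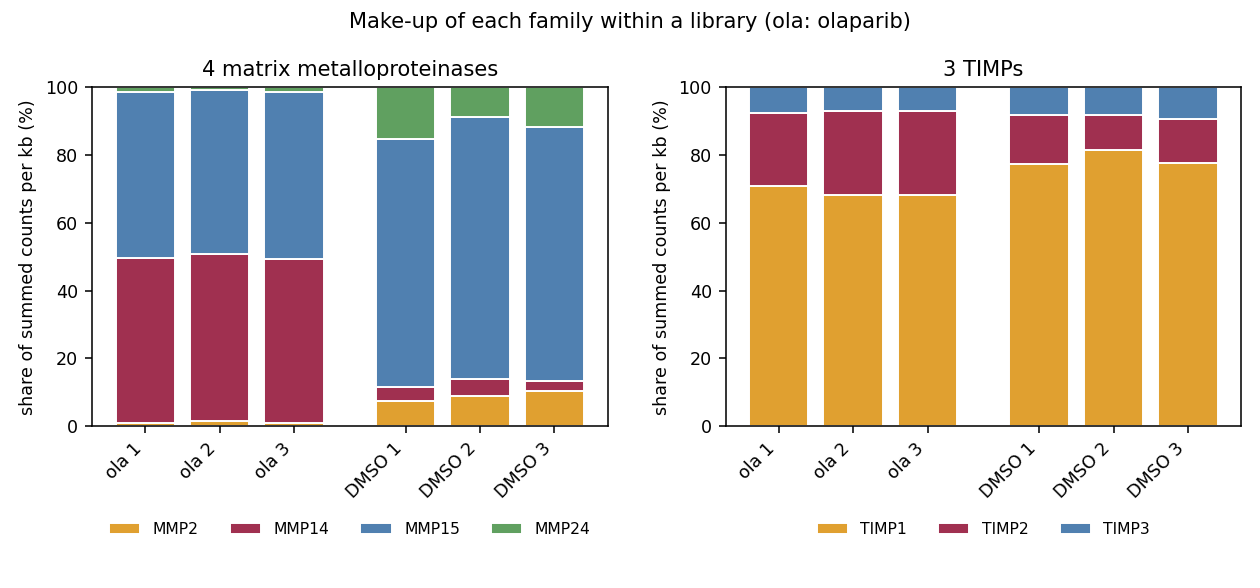
Share of each gene in the summed counts per kilobase of exon of the 4 MMPs (left) and the 3 TIMPs (right), in %, for the 3 olaparib and the 3 DMSO libraries. MMP14 makes up 48.3 to 49.3% of the MMP total in olaparib and 3.07 to 4.78% in DMSO, while TIMP1 is the largest TIMP in every library.

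TIMP2, the inhibitor that also bridges MMP14 and pro-MMP2, was the one called among TIMP1, TIMP2 and TIMP3. It held 255, 261 and 263 CPM in olaparib, against 108, 99.9 and 104 CPM in DMSO. Both groups were tight and far apart. Its log2 fold change was 1.32 ± 0.09 (SE, 2.50-fold, adjusted p = 9.12e-08 by edgeR). CEP295NL, a gene on the same strand within the span of TIMP2, shares 198 exonic bases with it. It held 97 counts over the olaparib libraries and 31 over the DMSO libraries, beside 22726 and 12098 counts of TIMP2.

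TIMP1, a secreted inhibitor of most soluble MMPs but a weak one of MMP14, had the highest level per length of the 10 genes in both groups. It held 230, 197 and 196 CPM in olaparib, against 159, 215 and 171 CPM in DMSO. DMSO replicate 2 lay within the range of the olaparib libraries. The log2 fold change of 0.19 ± 0.13 (SE) was not called (adjusted p = 0.186 by edgeR). Of 14 alternatives run, it passed in 1, without DMSO replicate 2 (0.32, adjusted p = 0.0163 by edgeR).

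TIMP3 binds to the matrix and inhibits ADAM as well as MMP enzymes. It held 73.1, 60.8 and 59.0 CPM in olaparib, against 50.4, 63.8 and 62.6 CPM in DMSO. The groups overlapped, and the log2 fold change of 0.13 ± 0.12 (SE) was not called (adjusted p = 0.367 by edgeR). TIMP1 and TIMP3 each lie inside an intron of a synapsin gene on the opposite strand, SYN1 and SYN3, without a shared exonic base. Those synapsin genes were lower, with SYN1 at 4 counts over the olaparib libraries and 278 over the DMSO libraries. SYN3 stood at 0.721 ± 0.449 CPM in olaparib and 2.73 ± 0.238 CPM in DMSO (SD, n = 3).

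The make-up of the TIMPs also differed. TIMP2 took 21.5, 24.7 and 25% of the summed counts per kilobase of the 3 TIMPs in olaparib, against 14.3, 10.4 and 12.9% in DMSO. TIMP1 took 71.0, 68.2 and 68.1% in olaparib and 77.5, 81.5 and 77.6% in DMSO.

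The ratio of MMP14 to TIMP2 does not depend on how libraries are scaled. Per length it was 0.337, 0.310 and 0.302 in olaparib, against 0.0220, 0.0255 and 0.0142 in DMSO, so TIMP2 was the more abundant RNA in every library. The ratio was 15.8-fold higher in olaparib, with no overlap. The exact two-sided permutation test gave p = 0.1, the smallest value that 3 libraries against 3 allow. The ratio of MMP2 to TIMP2 was 0.0075, 0.00986 and 0.00584 in olaparib and 0.0401, 0.0482 and 0.0476 in DMSO. It was thus 5.97-fold lower in olaparib.

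PLAU, the urokinase gene, had the second largest difference of the 10. It held 15.0, 13.3 and 13.4 CPM in olaparib, against 1.21, 2.02 and 1.47 CPM in DMSO. The counts were 430, 407 and 379 in olaparib and 51, 60 and 65 in DMSO, and no library of 1 group came near the other. On the log2 scale the difference was 3.16 ± 0.22 (SE, 8.96-fold, adjusted p = 8.12e-08 by edgeR). C10orf55, on the opposite strand, shares 916 exonic bases with PLAU (31.1% of its exonic length) and held 26 counts over the olaparib libraries and 4 over the DMSO libraries. As with MMP24, assignment of reads by strand is not given, so the counts of this pair may not be independent.

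PLAUR, the urokinase receptor, was higher with more spread. It held 85.2, 56.7 and 51.5 CPM in olaparib, against 22.4, 30.6 and 27.0 CPM in DMSO. Olaparib replicate 1 stood apart from the other two, which still lay above all DMSO libraries. The log2 fold change was 1.27 ± 0.18 (SE, 2.42-fold, adjusted p = 4.1e-05 by edgeR).

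PLAT, the activator that works mainly on fibrin, was lower in olaparib. It held 5.86, 9.51 and 5.63 CPM in olaparib, against 18.6, 12.5 and 11.1 CPM in DMSO. Olaparib replicate 2 and DMSO replicate 3 came closest to each other, and DMSO replicate 1 was the highest. The log2 fold change was -1.003 ± 0.25 (SE, adjusted p = 0.00271 by edgeR), and it ranged from -1.29 without olaparib replicate 2 to -0.76 without DMSO replicate 1.

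The more abundant activator RNA was therefore a different one in each group. The per-length ratio of PLAU to PLAT was 5.74, 3.14 and 5.35 in olaparib, against 0.146, 0.364 and 0.298 in DMSO, with the value 1 between the groups. The ratio of PLAU to its receptor PLAUR was 0.266, 0.354 and 0.394 in olaparib and 0.0816, 0.0997 and 0.0822 in DMSO. The receptor RNA was thus the more abundant of that pair in all 6 libraries, and the ratio was 3.81-fold higher in olaparib.

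By CPM per kilobase of exon, the order in olaparib was TIMP1 (135 ± 12.6), TIMP2 (46.1 ± 0.759), a group of MMP15 (14.6 ± 0.738), MMP14 (14.6 ± 0.59), PLAUR (14.5 ± 4.07) and TIMP3 (13.97 ± 1.67), then PLAU (4.71 ± 0.323), PLAT (1.06 ± 0.329), MMP24 (0.388 ± 0.0993) and MMP2 (0.356 ± 0.0933) (SD, n = 3). MMP15, MMP14, PLAUR and TIMP3 did not differ by more than their spread, nor did MMP24 and MMP2. In DMSO the order was TIMP1 (118 ± 19.1), TIMP2 (18.4 ± 0.676), TIMP3 (12.8 ± 1.61), MMP15 (7.06 ± 0.56), PLAUR (5.99 ± 0.925), PLAT (2.12 ± 0.602), MMP24 (1.14 ± 0.38), MMP2 (0.833 ± 0.0601), PLAU (0.531 ± 0.141) and MMP14 (0.379 ± 0.101). There MMP15 and PLAUR, MMP24 and MMP2, and PLAU and MMP14 lay within their spread of each other. MMP14 and PLAU were thus the lowest of the 10 in DMSO, and in olaparib MMP14 lay within its spread of MMP15.

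The 10 genes lie on 9 chromosomes (hg38, GENCODE release 29), and MMP2 and MMP15 both lie on chromosome 16. MMP14 lies at 22836557 to 22849027 of chromosome 14, and 79 tested protein-coding neighbours within 5 Mb had a median log2 fold change of -0.61. TIMP2 lies at 78852977 to 78925387 of chromosome 17, among 165 such genes with a median of -0.49. PLAUR lies at 43646095 to 43670547 of chromosome 19, among 216 genes with a median of -0.48. PLAU lies at 73909177 to 73917497 of chromosome 10, where the 66 genes around it had a median of 0.52, with 37 higher and 11 lower. For MMP15, at 58025566 to 58046901 of chromosome 16, the median of 52 genes was -0.12. MMP14, TIMP2 and PLAUR were thus higher in regions whose median was below the -0.09 of all tested genes. The region of MMP15 was close to that value, and its window overlaps that of MMP2. Among the lower genes, PLAT lies at 42175233 to 42207724 of chromosome 8, in a region of 39 genes with a median of -0.65. MMP24 is at 35226654 to 35277000 of chromosome 20 and MMP2 at 55389700 to 55506691 of chromosome 16, with medians of -0.11 and -0.12 over 89 and 56 genes. TIMP3 is at 32801701 to 32863043 of chromosome 22, where 93 genes had a median of -0.97, and TIMP1 at 47582313 to 47586789 of chromosome X, with -0.43 over 68 genes. A difference between these genes and their regions was not tested.

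A further 125 genes of pericellular proteolysis were listed, of which 104 were tested. Of the 19 other MMPs, 8 were tested, with 3 higher, 2 lower, 3 not called and a median log2 fold change of 0.26. MMP16, the third membrane-type enzyme, lacked counts in all olaparib libraries, against 8.57 ± 2.13 CPM in DMSO (SD, n = 3), at least 250-fold lower against a floor of 3 counts over the 3 olaparib libraries. MMP17, anchored by a lipid, was 6.00-fold higher, at 50.1 ± 15.5 CPM in olaparib against 8.40 ± 1.78 CPM in DMSO. MMP11 (stromelysin 3) was 13.1-fold lower, at 0.595 ± 0.0368 CPM in olaparib against 7.84 ± 1.12 CPM in DMSO. MMP19 was 6.29-fold higher, with 128 counts over the olaparib libraries against 26 over the DMSO libraries. The classic secreted enzymes were near the limit of detection and were not tested. MMP1 (interstitial collagenase) held 0 counts in olaparib and 2 in DMSO, MMP7 (matrilysin) 12 and 0, and MMP9 (gelatinase B) 26 and 26.

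Of 9 other inhibitors, activators and inducers of MMPs, 4 were higher, 3 lower and 2 not called, with a median of -0.37. TIMP4, the remaining TIMP, was 8.86-fold higher, at 6.35, 6.34 and 7.93 CPM in olaparib against 0.641, 0.741 and 0.927 CPM in DMSO. FURIN, the convertase that activates MMP14 in the secretory pathway, was 3.02-fold higher, at 340 ± 1.71 CPM in olaparib against 113 ± 4.56 CPM in DMSO. PCSK5, a related convertase, was lower, with 30 counts in olaparib against 2081 in DMSO. CLDN1, a tight junction protein, was 12.0-fold higher. RECK, a membrane-anchored MMP inhibitor named here after its values were seen, was 2.46-fold lower, at 7.35 ± 0.604 CPM in olaparib against 18.1 ± 1.58 CPM in DMSO. The adjusted p in edgeR's test was 3.49e-07 for TIMP4, 2.41e-08 for FURIN and 6.95e-06 for RECK.

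Of 16 genes for inhibitors, receptors and clearance in the plasminogen system, 13 were tested, with 8 higher, 4 lower, 1 not called and a median of 1.38. SERPINE2 (protease nexin 1), which inhibits urokinase, was 4.56-fold higher, and the lipoprotein receptor LRP8 5.71-fold higher. MRC2, a collagen receptor that binds the urokinase receptor complex, was 3.28-fold lower. PLG, which encodes plasminogen itself and is made mainly by the liver, held 4 counts over the olaparib libraries and 0 over the DMSO libraries and was not tested.

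Among 13 serine proteases of the cell surface and blood clotting and their inhibitors, 8 were tested, of which 6 were higher and 2 lower, with a median of 2.59. F3 (tissue factor) was 9.33-fold higher and its inhibitor TFPI 8.75-fold higher, whereas TFPI2, a matrix-bound inhibitor of plasmin, was 2.82-fold lower. ST14 (matriptase), which can activate urokinase, was 8.98-fold higher, at 8.17 ± 1.64 CPM in olaparib against 0.92 ± 0.406 CPM in DMSO (SD, n = 3).

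Of 18 ADAM and ADAMTS enzymes, relatives of the MMPs, 17 were tested, with 9 higher, 5 lower, 3 not called and a median of 0.77. ADAM12 held 49.99, 54.3 and 48.0 CPM in olaparib, against 0.142, 0 and 0.316 CPM in DMSO. DMSO replicate 2 had no count of it, and the 3 DMSO libraries held 20 counts in all. ADAM23 went the other way, with 18 counts in olaparib and 2169 in DMSO. ADAM10, a sheddase of many surface proteins, was 2.61-fold higher and ADAMTS1 4.25-fold lower.

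Of 21 matrix and surface substrates, 20 were tested, with 14 higher, 5 lower, 1 not called and a median of 0.70. TGM2, a crosslinking enzyme, was 44.5-fold higher, the laminin chain LAMB3 15.5-fold and the hyaluronan receptor CD44, which MMP14 can shed, 7.88-fold. TNC (tenascin C) lacked counts in all olaparib libraries, against 58.6 ± 4.99 CPM in DMSO. Of 12 genes of invadopodia and of MMP14 transport, 6 were higher, 2 lower and 4 not called, with a median of 0.26. CTTN (cortactin) was 2.52-fold and the exocyst subunit EXOC3 3.10-fold higher. The scaffold SH3PXD2B was 4.84-fold lower, and so was ADI1, which binds the tail of MMP14, by 2.34-fold.

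Of 17 transcription factors with known sites at MMP or PLAU promoters, 10 were higher, 5 lower and 2 not called, with a median of 0.60. ETS1 was 4.96-fold higher, at 41.0 ± 5.98 CPM in olaparib against 8.24 ± 0.847 CPM in DMSO. TWIST1 and EGR1 were 5.38-fold and 5.02-fold lower. JUN, a subunit of the AP-1 dimer, held 39.8, 34.8 and 38.4 CPM in olaparib, against 620, 1447 and 1398 CPM in DMSO. Other AP-1 subunits of the list, named after their values were seen, went both ways. FOSL2 was 4.58-fold, FOSL1 4.09-fold and JUNB 1.88-fold higher, FOS was 3.58-fold lower and JUND was not called. Each list's count stands beside the 75.7% of all genes called, and its median beside -0.09 over all genes.

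**Figure D4:**
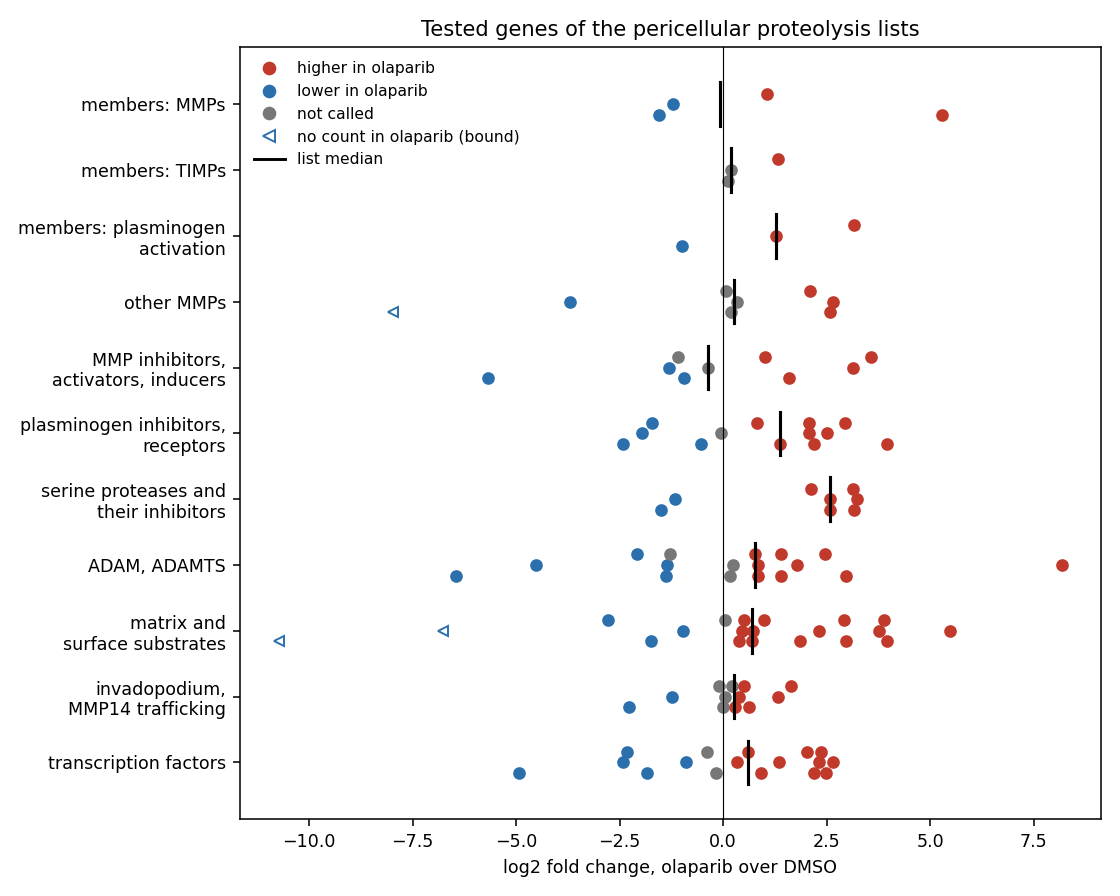
Log2 fold change, olaparib over DMSO, of each tested gene in the 10 member genes and 8 further lists; black bars are list medians, and open triangles mark genes without a count in olaparib at their bound. MMP14 at 5.28, ADAM12 at 8.18 and TGM2 at 5.48 are the highest points of their rows, and each row except the TIMPs holds genes on both sides of 0.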

How the data were processed

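RNA from 6 libraries, 3 olaparib and 3 DMSO, was sequenced. Groups and replicate numbers came from the sample titles, which are the column names of the table. The authors deposited raw read counts per gene symbol. Per the submitters' processing notes, fastp, STAR and hg38 were used. No source used here names the counter, its annotation or its strand setting. More genes held 2 counts than 1 in every library, a pattern that arises if read pairs count double, so counting error may be understated. Nothing states that replicates were separate cultures, so p-values cover only variation among these libraries, possibly technical. Replicates differed by more than sampling noise (chi-square per degree of freedom 4.74 to 68.6).

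The test was edgeR's quasi-likelihood F test (edgeR 4.0.16, R 4.3.3) with robust dispersions, TMM scaling, the default filter on low counts, treatment as the only term and Benjamini-Hochberg adjustment over all 17078 tested genes, with calls at 0.05. Standard errors were derived from the F statistic. The test was also run on simulated data in which few genes differed. That run does not cover a table with 75.7% of tested genes called. CPM values include every library. Levels per kilobase divide by the exonic length of all transcripts in GENCODE release 29, matched by symbol for 10 of 10 genes, so they depend on which isoforms are present. Folds against a group without counts use a floor of 3 counts over that group. Promoters come from RefSeq.

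Alternatives were RLE size factors, library size alone, DESeq2 1.42.0, limma-voom 3.58.1, 2 other filters, a replicate block, counts divided by 2, a 2-fold threshold and the loss of each library. Genes named from the other lists were up to 4 per list with the smallest adjusted p, plus PLG, MMP1, MMP7, MMP9, TIMP4 and genes overlapping the 10; some genes this selects are not reported here. The 10 genes and all lists were chosen with earlier results of these data known.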

Additional observations from a re-analysis of the deposited data

How the results depend on the processing

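In every alternative run, the counts of 5 higher and 3 lower genes among the 10 stayed within 1.5 times, and MMP14, MMP15, TIMP2, PLAU, PLAUR, MMP2, MMP24 and PLAT kept their direction and their call. Over all alternatives the log2 fold change ran from 5.05 to 5.403 for MMP14, from 2.998 to 3.36 for PLAU, from -1.44 to -1.04 for MMP2, from -1.74 to -1.26 for MMP24 and from -1.29 to -0.76 for PLAT. The 5 per-length ratios kept their direction without each library. TIMP1 was the exception: without each library in turn its log2 fold change ranged from 0.092 to 0.32, and it was called without DMSO replicate 2. Its adjusted p ran from 0.0163 to 0.511 over all alternatives, and the cause was not tested. TIMP3 was called in none, between 0.013 and 0.20. Same-numbered replicates did not deviate together across genes (correlations of -0.18, -0.13 and -0.011), and differently numbered ones gave -0.11 to 0.18. Deviations from a mean of 3 libraries sum to 0, so these values cannot show whether the numbers pair the samples. With the replicate number as a block, MMP14 and PLAT gave log2 fold changes of 5.29 and -1.01, and the counts of 5 higher and 3 lower were the same. Library size alone moved the median of all genes from -0.09 to -0.16 (log2). MMP2 and MMP24 in olaparib rest on 37 to 69 counts a library, which limits their precision.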

Other observations

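Olaparib replicate 1 had the highest CPM of its group for 7 of the 10 genes and olaparib replicate 3 the lowest for 6. Among the DMSO libraries, replicate 2 was highest for 5 genes and lowest for 2, and replicate 1 was highest for 4 and lowest for 5. Whether these counts are uneven was not tested. PLAT and MMP2 were highest in olaparib replicate 2, in contrast to PLAU and PLAUR, which were highest in olaparib replicate 1.

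The clotting receptors next to the plasminogen system moved both ways. THBD (thrombomodulin), named after its values were seen, stood at 5.42 ± 0.937 CPM in olaparib against 0.891 ± 0.234 CPM in DMSO, and PROCR, the receptor of protein C, at 12.2 ± 1.53 CPM in olaparib against 27.1 ± 2.70 CPM in DMSO (SD, n = 3). By edgeR's test the adjusted p was 4.21e-06 for THBD and 1.09e-05 for PROCR, which was also named after its values were seen.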
